A study of Homo sapiens with 4 samples.

Results

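The 2 kb of sequence past the 3′ end was examined for 8846 human genes of 3 to 97 kb, out of 9667 genes in the deposited tables. Among genes listed for at least 1 library, the choice was by length alone, so that the whole stretch past the end lay within the tabulated windows. More of them were listed for deeper libraries, with 8431 and 8294 for tagged-CFAP20 and 5898 and 4448 for CFAP20-KO. Whether a gene is listed only where it has signal was not tested, so membership may depend on signal. A region consists of the 200-bp bins centred 200 to 2000 bp past the listed end of a gene, so the bin over the end itself was left out. Each was set against the bins centred 200 to 2000 bp before the same end, called the last 2 kb inside, and against the 2 kb upstream of the gene start. The genes comprised 5305 protein-coding genes and 3208 long noncoding RNA genes, with 4513 on the plus strand and 4333 on the minus strand. At the lower length limit, SCGB2A2 (3002 bp) had no signal past its end in any library and ENSG00000276517 (3004 bp) had 10, 2, 2 and 0 read overlaps in tagged-CFAP20 replicates 1 and 2 and CFAP20-KO replicates 1 and 2. At the upper limit, SHOC1 (96921 bp) had 2 read overlaps in tagged-CFAP20 replicate 1 and 0 in the other libraries, and SLC1A1 (97026 bp) and ANKRD36B (97059 bp) were the first genes too long to enter.

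The libraries were made by FLASH-seq, which fixes proteins to bound RNA with ultraviolet light, captures a biotin-tagged protein on streptavidin beads, shortens the bound RNA with RNase I and sequences what is left. The 2 groups of 2 libraries each were compared in RPE1, an immortalised line derived from human retinal pigment epithelium, in a derivative labelled iCas9 p53/puro-dKO. The tagged-CFAP20 libraries came from CFAP20-KO cells that expressed FLASH-BIO-CFAP20, and the CFAP20-KO libraries came from CFAP20-KO cells without it, so both groups share the CFAP20 knockout and the loss of p53. The series asks whether CFAP20, a protein known from cilia and flagella, binds RNA, and the CFAP20-KO libraries are its negative control.

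At the end of most human genes the transcript is cut and given a poly(A) tail shortly downstream of a hexamer, most often AATAAA or its variant ATTAAA in the DNA sequence, which is bound by the cleavage and polyadenylation specificity factor. RNA polymerase II continues past the cut, and the uncapped downstream RNA is degraded by the exonuclease XRN2 until the polymerase is released. Many genes carry several such ends, so that a longer 3′ untranslated region can lie past the end of a shorter isoform. RNA recovered past a listed gene end can therefore belong to downstream transcript that has not been degraded, to a longer isoform, or to another gene.

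The last 30 bases of 8 genes are shown because these ends carry the contrasts described further on. They are written 5′ to 3′ in the sense of the gene, from hg38, with the hexamer nearest the end in capitals where there is one. For FUBP1, ZFP36L1 and CTNNB1 both the end listed in the tables and the farthest end of the gene that GENCODE 44 annotates within 2 kb past it are shown.
FUBP1, listed end, chr1:77948405-77948434, minus strand: tgtgctttacAATAAAtgatatgaaacctc
FUBP1, farther end, chr1:77946482-77946511, minus strand: catatataAATAAAtatttcaatacattaa
ZFP36L1, listed end, chr14:68788605-68788634, minus strand: taacaacaaaaaaaaaatgagagaaaagct
ZFP36L1, farther end, chr14:68787660-68787689, minus strand: aatcAATAAAccccgttttttcaagaaaca
CTNNB1, listed end, chr3:41239324-41239353, plus strand: gtttgatactgacctgtaaatcatccttta
CTNNB1, farther end, chr3:41240416-41240445, plus strand: ggttcagaATTAAActtttaattcattcga
CRMP1, listed end, chr4:5820764-5820793, minus strand: ctgcccactgacctgactagggcactttca
SFPQ, listed end, chr1:35182932-35182961, minus strand: ctcccaccataaaggcttggaatgtttcca
PLK2, listed end, chr5:58453982-58454011, minus strand: ttggcAATAAAgagtatgaaaacgcagaaa
RBM39, listed end, chr20:35703610-35703639, minus strand: ccactcaAATAAAagtctcttaaaaaggcc
SUPT5H, listed end, chr19:39476641-39476670, plus strand: ttcAATAAAaagaagctgtttggtctaaaa
The listed ends of ZFP36L1 and CTNNB1 hold neither hexamer in these 30 bases, whereas their farther ends hold one each. AATAAA or ATTAAA on the gene's strand occurred in the last 40 bases of 5458 of the 8846 genes (61.7%), and AATAAA alone in 4422. A window of 40 bases placed in the middle of the region past the end held either hexamer in 4.66% of the genes. The share with a hexamer at the end was 73.7% in protein-coding genes and 44.5% in long noncoding RNA genes.

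The deposited signal per bin is a whole multiple of a step that differs between libraries, and a value divided by its step is called read overlaps, since a read that crosses a bin border is in both bins. Depth differed widely, with 472330 and 382056 read overlaps in the windows of the tagged-CFAP20 libraries and 26206 and 11222 in those of CFAP20-KO, so single regions could be measured only with the tagged-CFAP20 libraries. The coding bins of CFAP20 held 36 and 38 read overlaps in tagged-CFAP20 and 0 and 0 in CFAP20-KO. Of 12 genes typical of cultured RPE1 cells, 5 were in the tables, with signal sums of 13792 and 11885 in tagged-CFAP20 and 4814 and 7476 in CFAP20-KO. Of 8 markers of differentiated retinal pigment epithelium, 4 were in the tables, with 39 and 27 read overlaps in tagged-CFAP20 and 5 and 0 in CFAP20-KO. The 3 liver markers in the tables were at 0 in all libraries, the blood markers had 1 read overlap in all, and the 2 neuronal markers had 13 and 15 in tagged-CFAP20 and 0 and 0 in CFAP20-KO. The labels do not say whether replicates are separate cultures, so p-values over libraries measure a spread that may be technical.

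Signal was found past gene ends in both groups and its sum was higher with tagged CFAP20, as it was before the end and upstream of the start, while the ratio of past-end to inside signal overlapped between groups. Summed over all regions, the signal past the end was 54640 and 49422 in tagged-CFAP20 and 25149 and 26580 in CFAP20-KO. The groups did not overlap, and the mean was 2.01 times as high in tagged-CFAP20 (52031 ± 3690 against 25865 ± 1012, SD, n = 2 each; exact two-sided permutation test, p = 0.333, the smallest that 2 against 2 libraries allow). The last 2 kb inside held 162980 and 155385 in tagged-CFAP20 and 78518 and 91094 in CFAP20-KO, a ratio of 1.88. Upstream of the start the sums were 46413 and 39362 in tagged-CFAP20 and 19422 and 23812 in CFAP20-KO, a ratio of 1.98. These ratios depend on the unstated scale of the deposited signal, and after scaling each library to the same window total the past-end sum was 0.909 times as high in tagged-CFAP20.

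Signal past the end relative to that inside is independent of such a scale. It was 33.5% and 31.8% in the tagged-CFAP20 libraries and 32.0% and 29.2% in the CFAP20-KO libraries. The groups overlapped, with means of 32.7 ± 1.22% in tagged-CFAP20 and 30.6 ± 2.02% in CFAP20-KO (SD, n = 2 each; exact permutation test, p = 0.667). As a share of all read overlaps on both sides of the end, the part past it was 25.1% (95% exact Clopper-Pearson interval 24.4 to 25.9%) and 24.1% (23.3 to 25.0%) in tagged-CFAP20, and 24.3% (21.5 to 27.1%) and 22.6% (18.1 to 27.7%) in CFAP20-KO. Each CFAP20-KO interval contains the values of both tagged-CFAP20 libraries. Intervals and floors cover counting error only. The libraries come from cultures in bulk, in which fewer cells holding an RNA and less of it per cell cannot be told apart.

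Averaged signal was lower right past the end than before it in all 4 libraries, and lower again 200 to 400 bp past it. Averaged over genes, the bins in the last 200 bp inside held 1.74 in tagged-CFAP20 and 1.16 in CFAP20-KO. The bins centred within 200 bp past the end held 0.989 in tagged-CFAP20 and 0.701 in CFAP20-KO, and those 200 to 400 bp past it 0.720 in tagged-CFAP20 and 0.419 in CFAP20-KO. Between 400 and 2000 bp past the end, the group means of the bins ranged from 0.619 to 0.665 in tagged-CFAP20 and from 0.232 to 0.361 in CFAP20-KO. The bins centred 200 to 1000 bp past the end held 1.01 and 1.05 times the signal of those centred 1200 to 2000 bp past it in tagged-CFAP20. In CFAP20-KO they held 1.07 and 1.15 times as much. This near to far ratio did not overlap between groups, and was 1.03 ± 0.0272 in tagged-CFAP20 and 1.11 ± 0.0595 in CFAP20-KO (SD, n = 2 each; exact permutation test, p = 0.333, the smallest possible). In regions free of annotated genes the groups overlapped, with near to far ratios of 1.09 and 1.08 in tagged-CFAP20 and 2.21 and 0.60 in CFAP20-KO (exact permutation test, p = 1), the CFAP20-KO values resting on 85 and 28 read overlaps. In all 4 libraries the level past the end stood between the level inside and the level upstream. The mean signal per bin past the end was 0.686 and 0.620 in tagged-CFAP20 and 0.316 and 0.334 in CFAP20-KO, against 0.525, 0.445, 0.220 and 0.269 upstream in the same order of libraries. It was 1.34 ± 0.0887 times the upstream level (SD over the 4 libraries, higher in 4 of 4; exact sign-flip permutation test, p = 0.125, the smallest that 4 libraries allow). Taken as sums, the ratio of past-end to upstream signal was 1.18 and 1.26 in tagged-CFAP20 and 1.29 and 1.12 in CFAP20-KO, and the groups overlapped (exact permutation test, p = 1). The upstream sums cover more bins per gene than the past-end sums, so these ratios lie below those per bin.

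**Figure D1:**
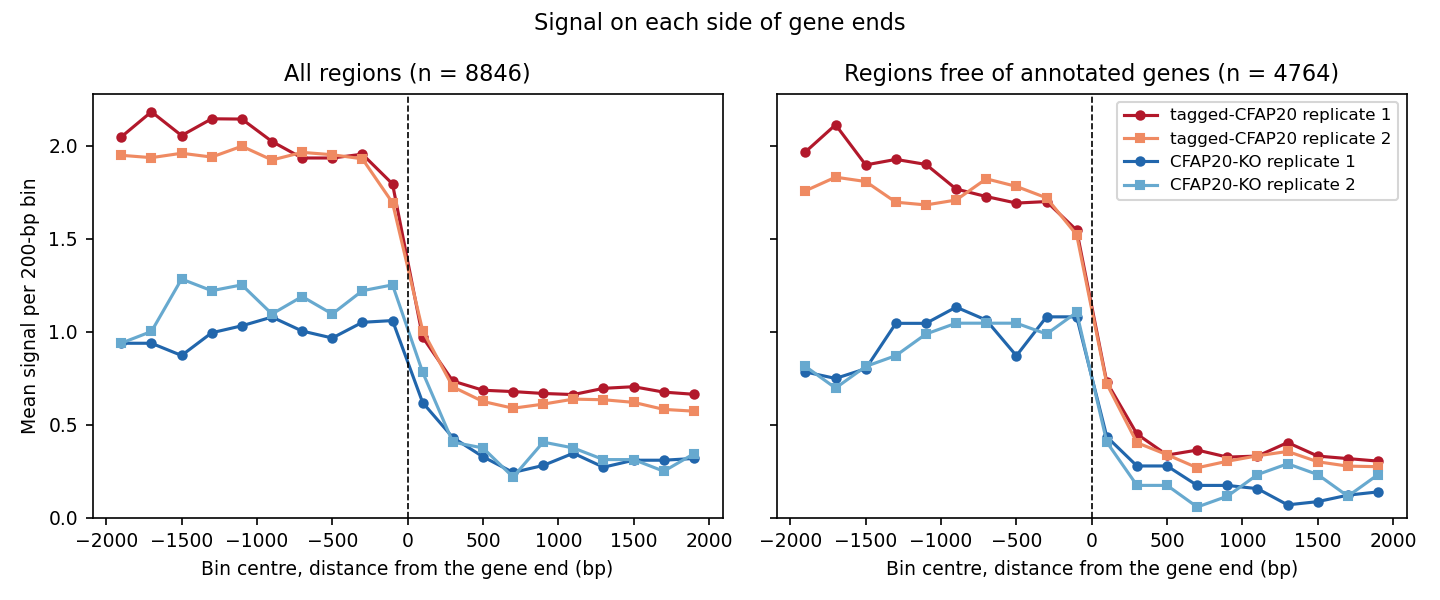
Mean signal per 200-bp bin (y axis) against the distance of the bin centre from the gene end in bp (x axis, 0 at the dashed line, gene body on the left), 1 line per library, for all 8846 regions on the left and the 4764 regions free of annotated genes on the right. In both panels all libraries drop at the end, and the tagged-CFAP20 lines lie above the CFAP20-KO lines; on the right, past-end signal is lower in the bins farther out than in the first bin past the end in all libraries.

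Most regions held no signal. Past the end, 16.5% and 15.4% of the regions had signal in the tagged-CFAP20 libraries and 2.13% and 0.837% in the CFAP20-KO libraries. When all libraries were brought by calculation to the depth of the shallowest, the shares were 1.06% and 1.09% in tagged-CFAP20 and 1.18% and 0.837% in CFAP20-KO. These groups overlapped, and at a common depth no difference in the share of regions was detectable. Over the 4 libraries together, 2165 regions (24.5%) had signal, 8.16% of the 8846 had it in both tagged-CFAP20 libraries and 13 regions had it in all 4. The 10 regions with most signal in each library held 8.52% and 9.02% of the past-end signal in tagged-CFAP20 and 14.9% and 22.9% in CFAP20-KO, where the highest region had 6 and 3 read overlaps.

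What the annotation places past the end went with how much signal lay there. The listed end was within 2 bp of the gene's annotated GENCODE 44 end in 4766 of 8648 matched genes (55.1%), and in 2190 (25.3%) the annotated gene ran at least 200 bp farther. Of the bins past the end, 60.0% held no annotated gene, and these bins carried 32.0% and 31.5% of the past-end read overlaps in tagged-CFAP20 and 31.4% and 34.4% in CFAP20-KO. Exons of the same gene made up 9.23% of the bins and carried 21.3% and 19.7% in tagged-CFAP20 and 18.5% and 25.0% in CFAP20-KO. Exons of another gene made up 3.93% of the bins and carried 18.1% and 19.7% in tagged-CFAP20 and 17.2% and 10.4% in CFAP20-KO. Per bin, the signal on exons of another gene was the highest of the 5 classes in both groups, at 3.14 ± 0.0417 in tagged-CFAP20 and 1.13 ± 0.349 in CFAP20-KO (SD, n = 2 each). Exons of the same gene followed with 1.45 ± 0.183 in tagged-CFAP20 and 0.768 ± 0.192 in CFAP20-KO, and bins with no gene had 0.346 ± 0.0278 in tagged-CFAP20 and 0.178 ± 0.0185 in CFAP20-KO. In every library the bins on exons of the same gene exceeded those with no gene, by 3.83 to 4.73 times (4 of 4 libraries; exact sign-flip permutation test, p = 0.125, the smallest possible). Exons of the same gene held 0.408 to 0.524 times as much per bin past the listed end as inside it, lower in 4 of 4 libraries with the same p. Bins with no gene past the end were also below intron bins inside, at 0.516 to 0.710 times their level.

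**Figure D2:**
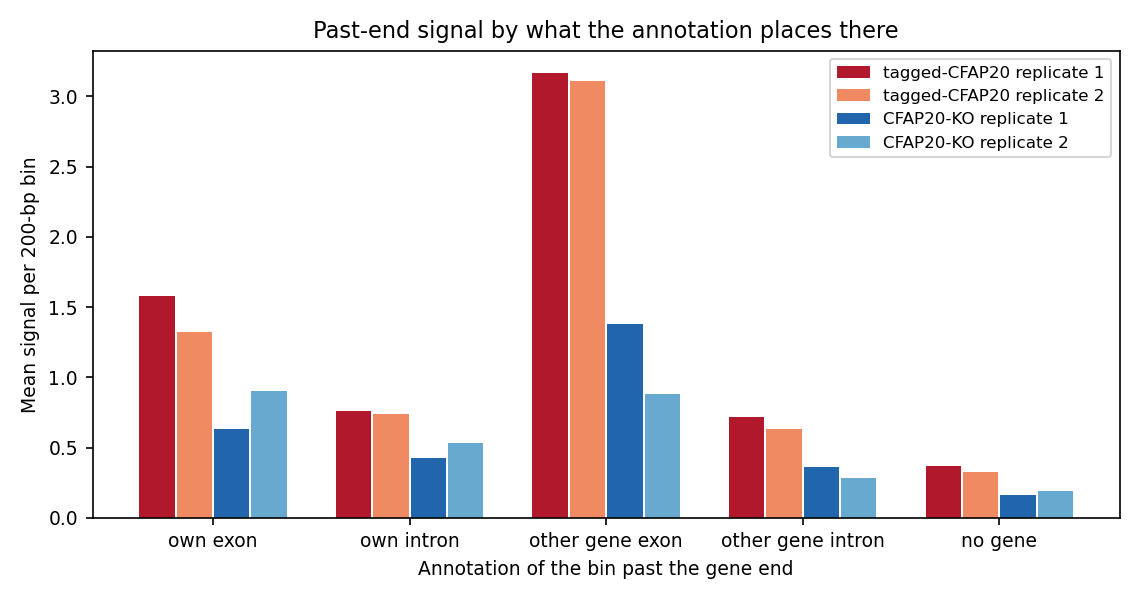
Mean signal per 200-bp bin past the gene end (y axis, bars from 0) by the annotation of the bin (x axis), with 1 bar per library and tagged-CFAP20 to the left of CFAP20-KO. Bins on exons stand highest in each library, with those of another gene first in 3 of the 4, and bins with no gene stand lowest.

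The tagged-CFAP20 mean lay above the CFAP20-KO mean in each of these classes, by 1.56 to 2.77 times, and the groups did not overlap in any of the 5 (exact permutation test, p = 0.333 each, the smallest possible). The ratio was 1.89 on exons of the same gene, 1.56 on its introns, 2.77 on exons and 2.08 on introns of another gene, and 1.94 where no gene is annotated. Within the bodies inside the end the same gene's exons had a ratio of 1.89 and its introns one of 1.82. As shares of the past-end read overlaps, exons of another gene took more in tagged-CFAP20 (18.9 ± 1.09% against 13.8 ± 4.77%) and introns of the same gene took less (11.2 ± 0.635% against 14.4 ± 1.71%), with groups that did not overlap (SD, n = 2 each; exact permutation test, p = 0.333). The shares of the remaining 3 classes overlapped between groups. The values in CFAP20-KO replicate 2 rest on 10 to 33 read overlaps per class.

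Regions free of any annotated gene numbered 4764 (53.9%). In these, signal past the end was 18.99% and 18.1% of that inside in tagged-CFAP20 and 17.3% and 19.6% in CFAP20-KO, with groups that overlapped (means 18.6 ± 0.605% and 18.4 ± 1.63%, SD, n = 2 each; exact permutation test, p = 1). Where an annotated gene lay past the end, it was 47.4% and 44.7% in tagged-CFAP20 and 48.0% and 36.6% in CFAP20-KO. The free regions had the lower ratio in 4 of 4 libraries (exact sign-flip permutation test, p = 0.125, the smallest possible). Their profile stood at 0.451 and 0.404 per bin at 200 to 400 bp in tagged-CFAP20 and at 0.305 and 0.275 by 1800 to 2000 bp. In CFAP20-KO it was 0.279 and 0.174 at 200 to 400 bp and 0.139 and 0.232 by 1800 to 2000 bp, on at most 16 read overlaps per point.

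Ends without either hexamer had more signal past them relative to the inside. The ratio to the inside was 51.6% and 49.1% in tagged-CFAP20 and 44.5% and 56.5% in CFAP20-KO for the 3388 genes with neither hexamer in the last 40 bases. For the 5458 genes with one it was 26.9% and 25.6% in tagged-CFAP20 and 27.2% and 21.9% in CFAP20-KO. The ratio without a hexamer was 1.63 to 2.58 times that with one, higher in 4 of 4 libraries (exact sign-flip permutation test, p = 0.125, the smallest possible). The level past the end differed less, as a mean region had 6.69 and 5.97 units of past-end signal without and 5.86 and 5.35 with a hexamer in tagged-CFAP20, and 2.87 and 3.19 without and 2.83 and 2.89 with one in CFAP20-KO. Among regions free of annotated genes the ratio was 26.1% and 23.5% without and 17.5% and 17.0% with a hexamer in tagged-CFAP20. In CFAP20-KO it was 20.7% and 78.6% without and 16.5% and 13.2% with one, the 78.6% resting on 11 read overlaps past the end. The level in these free regions was lower without a hexamer in 3 of 4 libraries, with means of 2.55 and 2.15 per region without and 3.43 and 3.17 with one in tagged-CFAP20, and 1.11 and 2.15 without and 1.64 and 1.41 with one in CFAP20-KO.

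Long noncoding RNA genes had nearly as much signal past their end as before it, at 93.4% and 89.1% in tagged-CFAP20 and 76.7% and 85.7% in CFAP20-KO, against 27.6%, 26.4%, 27.5% and 25.9% in protein-coding genes in the same order of libraries. They were higher by 2.79 to 3.38 times in 4 of 4 libraries (exact sign-flip permutation test, p = 0.125, the smallest possible). The level past the end was nevertheless lower than for protein-coding genes, with a mean of 3.60 and 3.13 per long noncoding region and 7.71 and 7.07 per protein-coding region in tagged-CFAP20. In CFAP20-KO the means were 1.45 and 1.55 per long noncoding region and 3.71 and 4.07 per protein-coding region. By gene length, the ratio to the inside was 37.5% and 34.2% in tagged-CFAP20 and 41.3% and 34.8% in CFAP20-KO for genes of 3 to 10 kb. It was 30.0% and 29.3% in tagged-CFAP20 and 29.5% and 29.1% in CFAP20-KO for genes of 10 to 30 kb. For genes of 30 to 97 kb it was 33.9% and 32.5% in tagged-CFAP20 and 29.01% and 25.2% in CFAP20-KO, and this was the 1 length class of 3 whose groups did not overlap (exact permutation test, p = 0.333, the smallest possible).

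**Figure D3:**
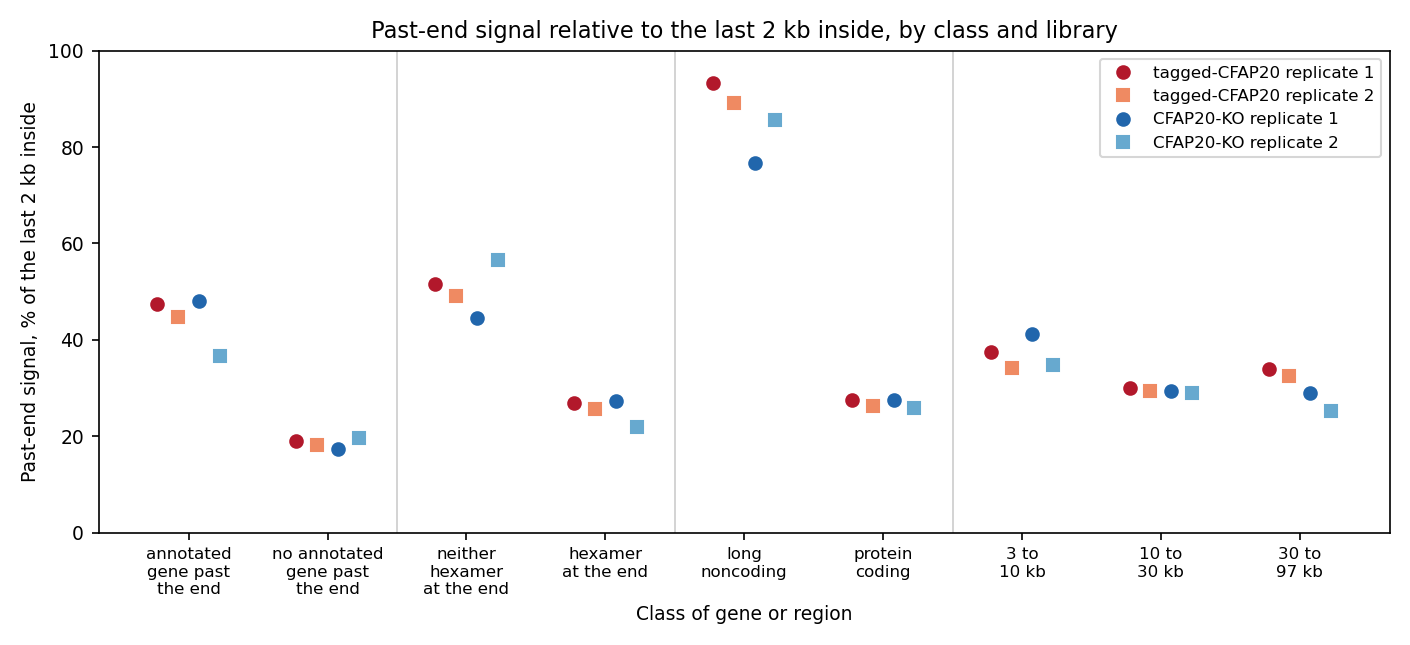
Signal past the end as a percentage of that in the last 2 kb inside (y axis) for classes of genes or regions (x axis), 1 point per library. Points of the 4 libraries lie close to each other compared with the distance between long noncoding (76.7 to 93.4%) and protein-coding genes (25.9 to 27.6%).

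Past-end signal followed the signal before the end. In tagged-CFAP20 replicates 1 and 2, a mean region held 1.26 and 1.32 past the end of the 5695 genes with no read overlap in the last 2 kb inside in either tagged-CFAP20 library. It held 10.3 and 9.37 for the 2475 genes with 1 to 9 read overlaps inside, 28.6 and 23.8 for the 7.22% of genes with 10 to 49, and 98.3 and 96.0 for the 37 with at least 50. CFAP20-KO, whose values did not enter these classes, had means of 0.496 and 0.583, 4.90 and 5.59, 13.1 and 13.4, and 49.4 and 22.4 over the same 4 classes. Both groups thus ordered the classes in the same way.

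Among single regions, the test across all genes and the counting test gave opposite counts. limma on log2(signal + 300) was run on the regions with signal in at least 2 libraries, which were 8.98% of the 8846, and 324 of them (40.8% of those tested) were higher in tagged-CFAP20 and 0 were lower at a Benjamini-Hochberg adjusted p under 0.05, with 450 at an unadjusted p under 0.05. Neither CFAP20-KO library had signal in any of the 324, and 322 of them had less tagged-CFAP20 signal than the 3 reads, pooled over both CFAP20-KO libraries, that a count of 0 allows (a signal of 263). The exact binomial test of the pooled reads called 0 (0.0%) of the same regions, with 3 at an unadjusted p under 0.05 and a smallest adjusted p of 1.0. The groups did not overlap in 80.0% of the regions tested, and 77.5% of the regions tested had no signal in either CFAP20-KO library. Such regions could enter only with signal in both tagged-CFAP20 libraries, so their groups could not overlap. The share without overlap is therefore no evidence of a change. limma also called regions in simulated libraries without any change, and called 0 of 2165 regions when signal in 1 library sufficed to enter. Without CFAP20-KO replicate 1 it called 131 higher and 53 lower, without CFAP20-KO replicate 2 it called 115 higher and 49 lower, and without either tagged-CFAP20 library it called 0. The 10 regions named here that were called all lost the call when libraries were scaled to the same window total, with limma adjusted p from 0.057 to 0.147. No single region is therefore described as changed between groups, and the values of named regions are given as measured.

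Relative to the signal inside, no gene passed either test. limma tested 6.25% of the 8846 genes, those with signal in at least 2 libraries on each side, and called 0 (0.0%), with 83 at an unadjusted p under 0.05 and a smallest adjusted p of 0.201, and Fisher's exact test of the pooled reads called 0, with 1 at an unadjusted p under 0.05. The median log2 change over all genes tested was 0.12 for past-end signal and -0.06 relative to the inside.

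The regions with most signal with tagged CFAP20 lay within annotated genes. None of the 10 was free of annotated genes, 3 of the 10 ends had a hexamer in the last 40 bases, and of the first 100 regions 9 were free of annotated genes. The 10 together held 8.68% of the past-end read overlaps of tagged-CFAP20.

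FUBP1, which encodes a DNA- and RNA-binding regulator of MYC, had most (chr1:77946305-77948304, minus strand). Its region held 46 and 37 read overlaps in tagged-CFAP20 and 1 and 1 in CFAP20-KO, and the last 2 kb inside held 41 and 32 in tagged-CFAP20 and 2 and 1 in CFAP20-KO. All 83 tagged-CFAP20 overlaps fell on annotated exons of FUBP1, whose farther end lies 1923 bp past the listed one, and both ends shown above carry AATAAA. The ratio of pooled reads past the end of FUBP1, tagged-CFAP20 over CFAP20-KO, was 6.28 with a 95% exact interval of 1.09 to 252. This ratio rests on 1 pooled CFAP20-KO read and on the deposited scale, and FUBP1 was picked for its tagged-CFAP20 signal. The 1 pooled read comes from rounding, since the 1 and 1 CFAP20-KO overlaps lie in separate libraries and cannot be 1 read. The ratio and both ends of its interval are therefore too high, and the interval does not show that the groups differ. The limma log2 change was 0.86 (SE 0.31, adjusted p = 0.0946) and the exact binomial adjusted p was 1.0. On the scale of the same window total the log2 change was 0.34 (limma adjusted p = 0.483), with an unadjusted exact binomial p of 0.522. In tagged-CFAP20 the highest FUBP1 bin lay shortly before the listed end with 17 and 10 read overlaps, and each bin past the end held 1 to 9 per library.

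DDX17, an RNA helicase that takes part in splicing, had more signal past its listed end than before it. The region (chr22:38483778-38485777, minus strand) held 39 and 34 read overlaps in tagged-CFAP20 and 3 and 2 in CFAP20-KO, and the last 2 kb inside 22 and 15 in tagged-CFAP20 and 2 and 1 in CFAP20-KO. All 73 tagged-CFAP20 overlaps fell on the annotated 3′ exon of DDX17, which runs 2440 bp past the listed end, and the last 40 bases before the listed end hold neither hexamer. KDELR3, which encodes a retrieval receptor for proteins of the endoplasmic reticulum, lies opposite and ends nearby, so that its region shares sequence with that of DDX17. It held 36 and 33 in tagged-CFAP20 and 4 and 2 in CFAP20-KO, while the last 2 kb of KDELR3 itself held 2 and 3 in tagged-CFAP20 and 0 and 2 in CFAP20-KO. All 69 tagged-CFAP20 overlaps past KDELR3 were on the DDX17 exon of the other strand, and since the signal is not split by strand, the 2 genes cannot be told apart there. In 148 of the 8846 regions such sequence was shared with another of the regions.

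CTNNB1, which encodes beta-catenin of the WNT pathway and of cell junctions, showed the same arrangement on the plus strand (chr3:41239454-41241453). Its region had 19 and 16 read overlaps in tagged-CFAP20 and 0 and 0 in CFAP20-KO. The last 2 kb inside held 5 and 6 in tagged-CFAP20 and 0 and 1 in CFAP20-KO. The tagged-CFAP20 overlaps of the region all fell on the annotated exon of CTNNB1, whose farther end lies 1092 bp past the listed one. That farther end holds the ATTAAA shown above, and from 1356 bp on the bins were at 0 in all libraries. The bin centred 156 bp past the listed end, outside the region, held 7 and 9 in tagged-CFAP20 and 1 and 0 in CFAP20-KO. The limma adjusted p of CTNNB1 was 0.0442, and 0.102 on the scale of the same window total. For ZFP36L1, a zinc-finger protein that binds AU-rich elements and promotes mRNA decay, 34 of 39 tagged-CFAP20 overlaps lay on the exon that reaches to the farther, AATAAA-bearing end, and 5 lay past it. Its region (chr14:68786505-68788504, minus strand) held 22 and 17 read overlaps in tagged-CFAP20 and 2 and 0 in CFAP20-KO, and the last 2 kb inside 144 and 144 in tagged-CFAP20 and 8 and 1 in CFAP20-KO. The past-end signal of ZFP36L1 was thus 15.3% and 11.8% of the inside signal in tagged-CFAP20.

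SFPQ, a splicing factor of paraspeckles, had 29 and 21 read overlaps past its end in tagged-CFAP20 and 5 and 0 in CFAP20-KO, and 34 and 24 inside in tagged-CFAP20 and 0 and 2 in CFAP20-KO. Of the 50 in tagged-CFAP20, 11 were on its own annotated exons and 39 on its own introns. CRMP1, a cytoplasmic protein known from growing axons, had 36 and 45 past the end in tagged-CFAP20 and 4 and 1 in CFAP20-KO, and 41 and 40 inside in tagged-CFAP20 and 4 and 3 in CFAP20-KO. All 81 were on an intron of CRMP1 as GENCODE 44 annotates it, and the listed ends of both SFPQ and CRMP1 lack a hexamer in the bases shown. CCDC9B, listed as C15orf52 in the tables, had 30 and 25 in tagged-CFAP20 and 2 and 1 in CFAP20-KO, all 55 in tagged-CFAP20 on its own exons.

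Other regions among the highest lay in introns of the same locus or in other genes. HCG18, a long noncoding RNA of the major histocompatibility region, had 40 and 27 read overlaps in tagged-CFAP20 and 3 and 3 in CFAP20-KO, on introns of its own locus. ENSG00000269895, a long noncoding RNA, had 40 and 32 in tagged-CFAP20 and 1 and 2 in CFAP20-KO on an intron of PRSS23, while its last 2 kb inside held 2 and 1 in tagged-CFAP20 and 0 and 0 in CFAP20-KO. Past the gene named U66059.58 in the tables, 40 and 26 in tagged-CFAP20 and 4 and 0 in CFAP20-KO lay on an intron of FAM20C. PSMB7, a subunit of the proteasome, had 26 and 35 in tagged-CFAP20 and 6 and 0 in CFAP20-KO on an exon of NEK6 on the other strand. SPRYD3 had 25 and 23 in tagged-CFAP20 and 0 and 0 in CFAP20-KO on exons of TNS2 on the other strand. HNRNPK-AS1 had 26 and 16 in tagged-CFAP20 and 0 and 0 in CFAP20-KO within HNRNPK on the other strand. The tagged-CFAP20 mean was 1.22 times the 3-read floor pooled over both CFAP20-KO libraries for SPRYD3 and 1.06 times it for HNRNPK-AS1. These ratios leave out the counting error of tagged-CFAP20 and give no least change. The limma adjusted p was 0.0442 and 0.0493 and the exact binomial adjusted p was 1.0 each, with an unadjusted exact binomial p of 0.074 and 0.113. Both were named for their limma change, and on the scale of the same window total the limma adjusted p was 0.147 and 0.127.

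Genes named for the largest limma change had lower levels. ZNF296 had 11 and 15 read overlaps in tagged-CFAP20 on CLASRP, NDUFA4L2 had 13 and 12 on SHMT2, BIN3 had 10 and 13 on CCAR2 and SPON1-AS1 had 13 and 13 within SPON1, all on the other strand and all with 0 and 0 in CFAP20-KO. ERMP1 had 10 and 12 in tagged-CFAP20 and 0 and 0 in CFAP20-KO on an intron of its own, and TMEM39A had 13 and 10 in tagged-CFAP20 and 0 and 0 in CFAP20-KO past its farther annotated end. The inside signal of ZNF296 was 0 in all libraries. In the other direction none passed a test after adjustment. FEZ2 had 10 and 13 in tagged-CFAP20 and 5 and 1 in CFAP20-KO, with a pooled-read ratio of 0.445 (95% exact interval 0.145 to 1.82). OPN1SW had 7 and 12 in tagged-CFAP20 and 5 and 1 in CFAP20-KO, on CALU of the other strand, with a ratio of 0.366 (0.115 to 1.53). TMED4, METTL21A, KIAA1586, ADAM20 and ABHD5 had 1 to 5 read overlaps in the tagged-CFAP20 libraries together and 2 or 3 in the CFAP20-KO libraries together.

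Of regions with no annotated gene past the end, PLK2 had most signal in tagged-CFAP20. PLK2 encodes a kinase induced early after stimulation and by p53. Its region (chr5:58451882-58453881, minus strand) held 16 and 12 read overlaps in tagged-CFAP20 and 0 and 0 in CFAP20-KO, and its last 2 kb inside 149 and 139 in tagged-CFAP20 and 4 and 3 in CFAP20-KO. The past-end signal of PLK2 was 186 ± 27.2 in tagged-CFAP20 (SD, n = 2), under the CFAP20-KO floor, and 10.7% and 8.63% of the inside signal. Its limma log2 change was 0.70 (SE 0.16, adjusted p = 0.0442) and the exact binomial adjusted p was 1.0. The listed end of PLK2 carries AATAAA, and in tagged-CFAP20 the first bin past it held 7 and 6 read overlaps and each later bin between 0 and 3. The free regions that came next were picked after their values were seen. LINC01583 had 18 and 6 past the end in tagged-CFAP20 and 0 and 0 in CFAP20-KO, MXRA8 had 16 and 7 in tagged-CFAP20 and 1 and 0 in CFAP20-KO, and FHL3 had 12 and 9 in tagged-CFAP20 and 0 and 0 in CFAP20-KO. FHL3 had 5 and 5 inside in tagged-CFAP20 and MXRA8 81 and 46.

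For genes with enough signal inside, the share past the end could be read gene by gene. At least 20 read overlaps in the last 2 kb inside in each tagged-CFAP20 library were found for 44 genes. This choice rests on the inside signal of the same libraries, the denominator of the ratio, which by itself lowers the ratio. How far it does so was not tested. The median of past-end over inside signal was 5.69% among the 44 genes, with a range from 0 to 114%. It was under 5% in 20 of the 44, of which 18 had a hexamer in the last 40 bases and 9 a region free of annotated genes, against 32 with a hexamer and 19 with a free region among all 44. It was over 20% in 7, of which 3 had a hexamer and 1 a free region. The 5 highest were FUBP1 with 114%, CRMP1 with 100.5%, HNRNPK-AS1 with 92.9%, SFPQ with 86.3% and CCDC9B with 71.0%. In 6 of the 44 the tagged-CFAP20 libraries held 0 read overlaps past the end.

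These included PTBP2, a neuronal paralogue of the splicing repressor PTBP1, with 55 and 39 read overlaps inside in tagged-CFAP20, and SUPT5H, a subunit of the elongation factor DSIF, with 31 and 30. CPNE7 had 31 and 21, RBM39, a splicing factor, 29 and 20, and ZNF146 28 and 24 in tagged-CFAP20. All 5 have a hexamer in the last 40 bases. GENCODE 44 annotates farther ends of PTBP2 and RBM39 within 2 kb, but neither region held a read overlap in any library. The signal of both was already low before the listed end. In tagged-CFAP20, PTBP2 held 14 and 13 at -1972 bp and 0 and 1 in its last bin inside, at -172 bp. RBM39 held 12 and 6 at -1742 bp and 1 and 0 at -142 bp. Their counts of 0 past the end thus do not mark where the signal stops. A count of 0 allows up to 3 reads per library, a signal of 53.0 in tagged-CFAP20 replicate 1 and 57.5 in tagged-CFAP20 replicate 2.

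**Figure D4:**
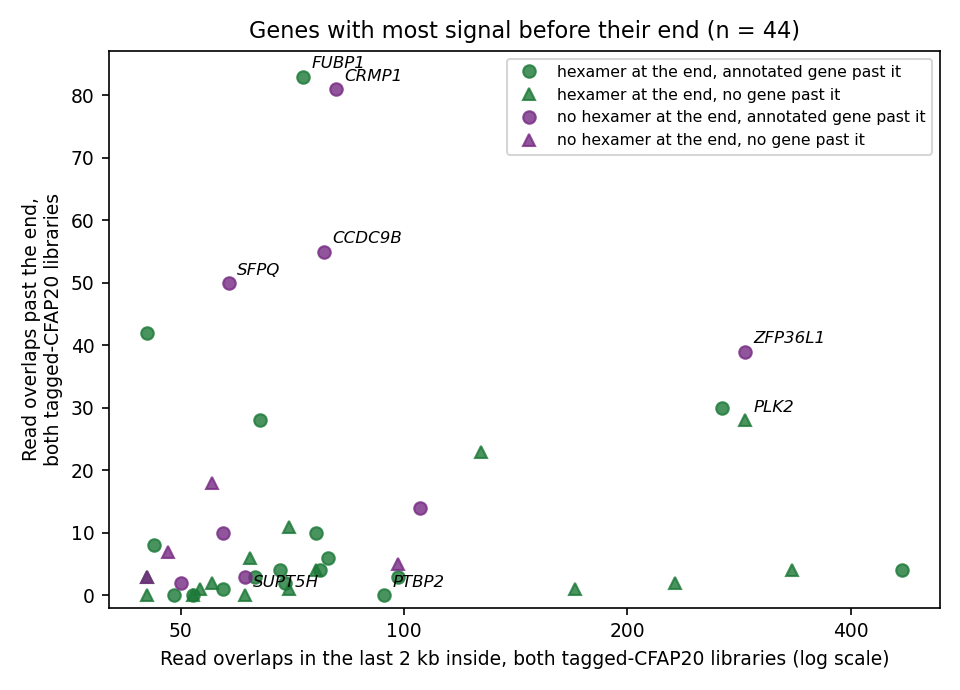
Read overlaps past the end (y axis) against those in the last 2 kb inside (x axis, log scale), both summed over the 2 tagged-CFAP20 libraries, for the 44 genes with at least 20 inside in each. Colour shows whether AATAAA or ATTAAA is in the last 40 bases and shape whether an annotated gene lies past the end, and the 4 highest points, FUBP1, CRMP1, CCDC9B and SFPQ, all have an annotated gene past the end.

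**Figure D5:**
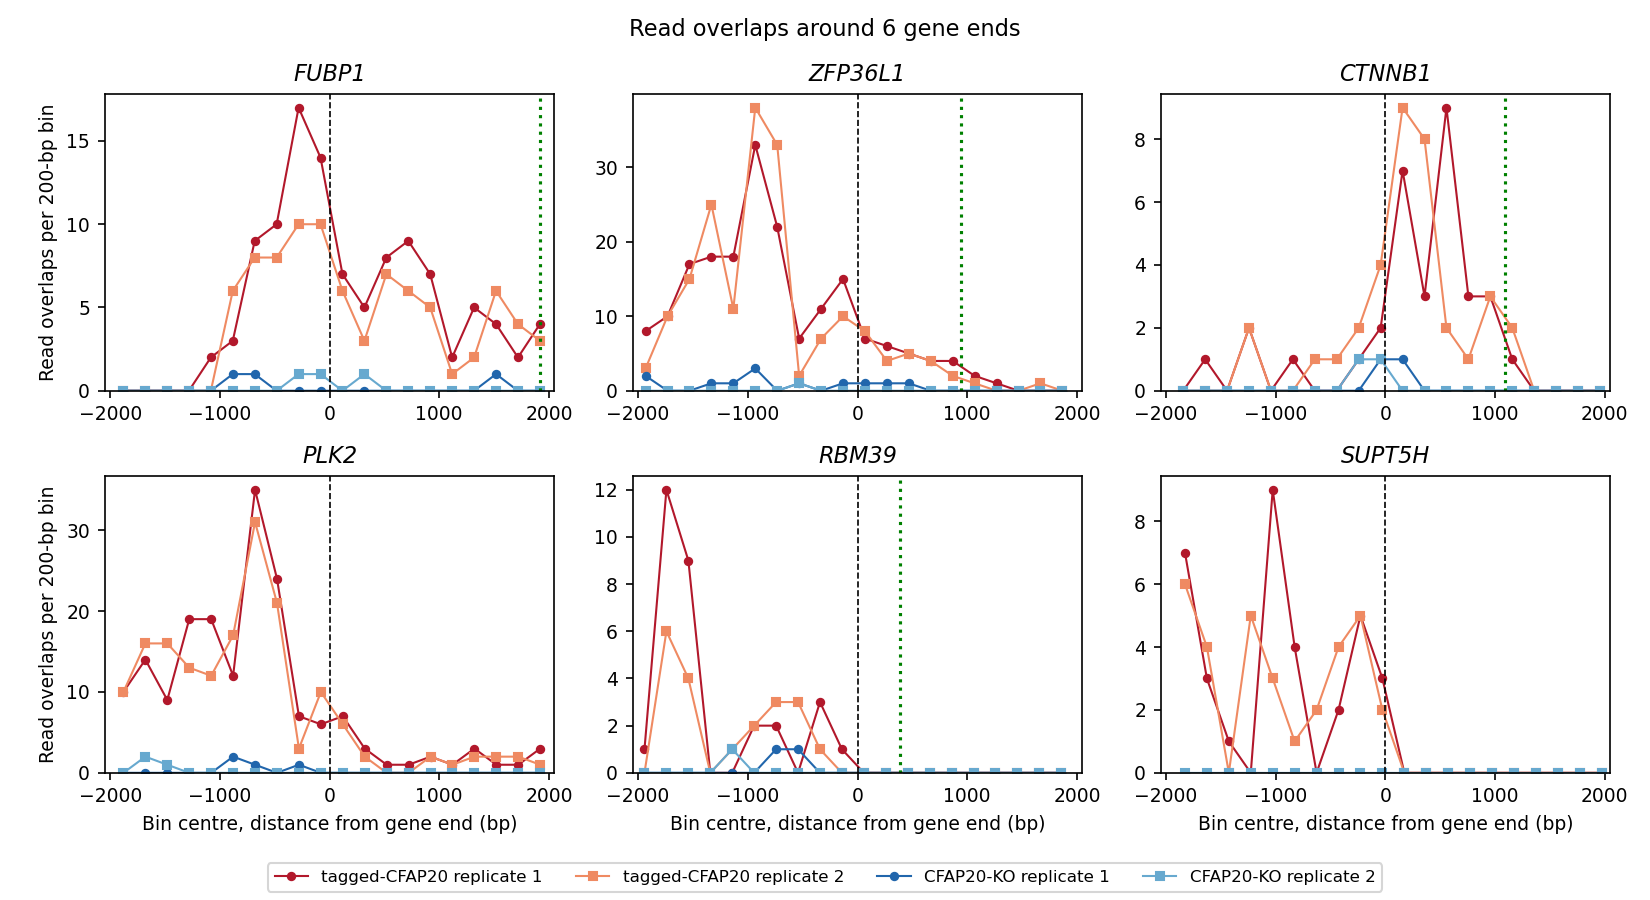
Read overlaps per 200-bp bin (y axis) against the distance of the bin centre from the listed gene end in bp (x axis) for 6 genes, 1 line per library, with the listed end as a dashed line and the farthest annotated end of the gene within 2 kb as a dotted line. In CTNNB1 and ZFP36L1 the tagged-CFAP20 signal runs on to about the dotted line, in PLK2 it continues at a low level, and in SUPT5H it stops at the listed end. In RBM39 it is already low before the listed end, with 1 and 0 in the last bin inside and 12 and 6 at -1742 bp. No bin past the end of RBM39 holds any.

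Gene groups were read by counts beside those of all members, of which 324, or 40.8% of those tested, were higher by limma with a median log2 change of 0.12 and 0 by the exact test. Of 35 cleavage, polyadenylation and termination factors, 11 were among the genes and 5 were tested, 2 of them higher by limma and 0 by the exact test, with a median log2 change of 0.12. Their most covered members were PPP1CA, the catalytic subunit of a phosphatase that acts in termination, with 2 and 10 read overlaps in tagged-CFAP20 and 0 and 1 in CFAP20-KO, all 12 in tagged-CFAP20 on RAD9A of the other strand, and INTS1, a subunit of Integrator, with 2 and 7 in tagged-CFAP20 and 0 and 0 in CFAP20-KO. RBBP6, a component of the cleavage complex, had 4 and 2 past its end in tagged-CFAP20 and 0 and 0 in CFAP20-KO, against 33 and 29 inside in tagged-CFAP20 and 2 and 2 in CFAP20-KO.

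Of 31 splicing factors and hnRNPs, 13 were among the genes and 7 were tested, 2 higher by limma and 0 by the exact test, with a median log2 change of 0.15. As a group they had 18.99% and 19.3% of their inside signal past the end in tagged-CFAP20 and 27.8% and 33.3% in CFAP20-KO, the second pair resting on 5 and 2 read overlaps. HNRNPH1 had 9 and 2 past its end in tagged-CFAP20 and 1 and 0 in CFAP20-KO, against 39 and 31 inside in tagged-CFAP20 and 2 and 0 in CFAP20-KO. HNRNPC had 13 and 5 in tagged-CFAP20 and 0 and 0 in CFAP20-KO, of which 13 lay on its own longer exon. Of 33 immediate early genes, 16 were among the genes and 6 were tested, 2 higher by limma and 0 by the exact test, with a median log2 change of 0.14. Their past-end signal was 7.25% and 6.84% of the inside in tagged-CFAP20 and 14.3% and 0% in CFAP20-KO, where 4 and 0 read overlaps lay past the ends. MCL1, an inhibitor of apoptosis, had 1 and 4 past its end and 21 and 14 inside in tagged-CFAP20, and 0 throughout in CFAP20-KO.

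Of 26 extracellular matrix genes, 10 were among the genes and 2 were tested, 1 higher by limma and 0 by the exact test, with a median log2 change of 0.08. Past their ends lay 3 and 9 read overlaps in tagged-CFAP20 and 0 and 0 in CFAP20-KO, against 180 and 161 inside in tagged-CFAP20 and 37 and 11 in CFAP20-KO. TGFBI, a secreted matrix protein, had 1 and 2 past its end in tagged-CFAP20 and 0 and 0 in CFAP20-KO, and LOX, which crosslinks collagen, had 0 and 2 in tagged-CFAP20 and 0 and 0 in CFAP20-KO. PRSS23, a secreted protease, had 0 and 3 in tagged-CFAP20 and 0 and 0 in CFAP20-KO. Of the 3208 long noncoding RNA genes, 448 had past-end signal and 146 were tested, 50 higher by limma and 0 by the exact test, with a median log2 change of 0.12. Among them ENSG00000254577 had 26 and 23 in tagged-CFAP20 and 3 and 0 in CFAP20-KO, of which 47 of 49 in tagged-CFAP20 lay on exons of TTC17.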

How the data were processed

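Each library came as 1 deposited table of coverage signal, in which every gene is a line of 200-bp bins; further deposited columns, of unit other, give gene position, strand and length. The submitters' processing notes name the hg38 build, HOMER 4.8.2, R 4.0.5, Bowtie2 2.3.5 and UMI-tools 1.0.0; how reads were mapped and scaled is not given in the sources used here. All values were whole multiples of 1 step per library (12.9, 13.9, 83.0 and 277 in tagged-CFAP20 replicates 1 and 2 and CFAP20-KO replicates 1 and 2; tolerance 0.01), taken as 1 read overlapping a bin. A read covered 1.37 bins on average. Genes absent from a table were set to 0. No sample matched 1 of the columns, which was not used. The signal is not split by strand.

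Bins up to 2 kb before and 99 kb after the gene start were read with Python 3.11.15, and each bin was classed by GENCODE 44 on hg38. Sums were compared by exact permutation over libraries. Regions were tested with limma 3.58.1 in R 4.3.3 (trend) on log2(signal + 300) where at least 2 libraries had signal, and with exact binomial and Fisher's exact tests of pooled reads (overlaps divided by bins per read). Log2 changes on that scale understate changes of low regions. Pooled reads were rounded to whole numbers, which is coarse where a group has few overlaps. The statistics were tested on simulated data. The test planned for the deposited values assumed that this pseudocount would hold depth differences in check, which it did not. Replicates differed by more than the sampling noise of independent counts (chi-square over genes, p = 2.31e-07 for tagged-CFAP20 and 0.0137 for CFAP20-KO). Reads counted in 2 bins may add to this spread, so it does not measure how far replicates differ. Their counts are unequal, so none is a copy of another. Named genes were up to 10 with the largest limma change in each direction (filled to 5), the 10 with most past-end signal per group, the 5 highest and 5 lowest past-end to inside ratios and the 3 most covered of each list. Genes and lists were chosen with earlier results of these data known. Gene lists were cleavage and termination factors, splicing factors, immediate early genes, extracellular matrix genes and long noncoding RNAs. A gene that the rule for named genes would give may be left unreported here.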

Additional observations from a re-analysis of the deposited data

How the results depend on the processing

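The past-end to inside ratio stayed higher in tagged-CFAP20 under the alternatives run for it, at 1.01 to 1.15 times, and 1.02 to 1.12 with a library left out. It was not higher in every class of genes. Genes annotated to run at least 200 bp past the listed end had 0.902 times the ratio in tagged-CFAP20 (36.8 ± 1.31% against 40.8 ± 3.42%, SD, n = 2 each), and the groups did not overlap. Genes with their annotated end within 200 bp had 1.15 times. By length it was 0.942 times as high for 3 to 10 kb, 1.01 for 10 to 30 kb and 1.22 for 30 to 97 kb. It was 0.997 times without a hexamer and 1.07 with one. The past-end sum was 1.91 to 2.11 times as high with a library left out and 0.909 times, lower, when libraries were scaled to the same window total. The past-end to upstream ratio reversed to 0.745 in regions free of annotated genes on both flanks and ranged from 0.939 to 1.09 with a library left out, and the near to far ratio from 0.891 to 0.961. The limma calls, 40.8% of the regions tested, became 70.7% with a pseudocount of 10, 60.6% (152 regions) in regions free of annotated genes, 0 when signal in 1 library sufficed (chosen after seeing the data) and 0 by the exact binomial test. With a library left out they ranged from 0 to 24.7%, with 0 without either tagged-CFAP20 library, 184 regions (131 higher and 53 lower) without CFAP20-KO replicate 1 and 164 (115 higher and 49 lower) without CFAP20-KO replicate 2. Scaled to the same window total, 333 were higher and 1 lower. The calls relative to the inside stayed at 0 under all alternatives run. With the replicate number as a block, limma called 297 regions, all higher, but the 10 named regions called without the block were not among them (adjusted p from 0.155 to 0.159). The 10 also lost the call on the scale of the same window total and when signal in 1 library sufficed. With the block the past-end sum was 2.01 and the past-end to inside ratio 1.07 times as high. No joint deviation of same-numbered libraries was seen (correlation -0.041 over gene bodies and 0.011 past the end). At the low counts of CFAP20-KO this cannot tell whether the numbers pair the libraries. A fit with no filter could not be run, and a median over genes of the past-end to inside ratio gives no value, since most genes are at 0. The cause of these shifts was not tested.

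Of 36 named genes with a limma value, 11 reversed sign in at least 1 repeat, and KDELR3 was the 1 gene called with its sign reversed. Among these 11, CRMP1, HCG18, PSMB7, SFPQ, PPP1CA and ABHD5 were called with their sign kept without CFAP20-KO replicate 1, and DDX17, ENSG00000269895 and CCDC9B without CFAP20-KO replicate 2. On the scale of the same window total the log2 changes were -0.18 for CRMP1, -0.45 for DDX17, -0.088 for ENSG00000269895, -0.63 for KDELR3 (limma adjusted p = 0.0285), -0.030 for PSMB7, -0.18 for CCDC9B, -0.080 for SFPQ and -0.087 for HNRNPH1, and with a pseudocount of 10 PPP1CA had 0.45. With a library left out they ranged from -0.12 to 0.52 for DDX17, -0.13 to 1.02 for ENSG00000269895, -0.17 to 0.27 for KDELR3, -0.61 to 0.43 for HCG18, -0.18 to 1.24 for PSMB7, -0.18 to 1.07 for SFPQ, -0.61 to 0.33 for PPP1CA, -0.053 to 0.30 for HNRNPH1 and -1.36 to 0.15 for ABHD5. The 26206 and 11222 CFAP20-KO read overlaps limit every value for a single region.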

Other observations

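Across regions, the past-end read overlaps of the tagged-CFAP20 replicates had a Spearman rho of 0.455 and those of the CFAP20-KO replicates one of 0.0993, and between groups rho was 0.136 to 0.177 (n = 8846 regions, which share libraries and depth and are mostly at 0, given as a description). Past-end and inside read overlaps of the same gene had a rho of 0.424 and 0.399 in tagged-CFAP20 and 0.105 and 0.0728 in CFAP20-KO over the same genes.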
